A study of Mus musculus with 2 samples.

Results

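Erythroid cells, the hemoglobin-making lineage that ends in the red blood cell, made up 508 of the 9967 cell barcodes kept from 2 single-cell RNA libraries of amputated neonatal mouse digits. They were chosen by measured values of the same cells. A barcode was taken where over 200 and under 7500 genes were detected, where mitochondrial transcripts gave under 15% of its UMIs (unique molecular identifiers, each standing for 1 captured RNA molecule), where the adult globin genes Hba-a1, Hba-a2, Hbb-bs and Hbb-bt together gave at least 20% of its UMIs, where at least 1 UMI of Alas2 was present, and where the fibroblast gene Pdgfra had 0 UMIs. The high globin share and the presence of Alas2 are therefore fixed by the choice of cells and are given only as a description. Of the 508 cells, 68 came from the BSA library and 440 from the FGF8 library.

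Hindlimb digits 2 and 4 of ICR mice were amputated through the middle phalanx (P2) on postnatal day 3, and a microcarrier bead was implanted into the wound on postnatal day 7. The bead carried FGF8 at 500 ng/µl in one group and 0.1% BSA, a carrier protein without growth factor activity, in the other. Tissue distal to the P2 stump was collected 24 h later with the epithelium removed, and the cells of 20 digits from 5 mice, males and females together, were pooled into 1 library per treatment. With 1 library per treatment no difference between FGF8 and BSA has a replicate check, so no p-values are given, and every interval below is a 95% interval that covers counting error only. Pooling also means that the cells of a library cannot be assigned to a digit or an animal. The BSA library held 3703 barcodes and 67739460 UMIs, of which 3252 barcodes were kept, and the FGF8 library held 7249 barcodes and 124889213 UMIs, of which 6715 were kept. The libraries shared 6 barcode sequences, and 0 of these were erythroid cells.

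Red cells arise from progenitors that respond to erythropoietin through the receptor Epor and are driven by the transcription factors Gata1 and Klf1. During terminal maturation the cell fills with hemoglobin, condenses and expels its nucleus, and becomes a reticulocyte, which still holds RNA but makes none. Reticulocytes then clear mitochondria and ribosomes through autophagy and ubiquitin pathways, lose their remaining RNA and circulate as mature red cells, so that blood in any tissue brings RNA-poor, globin-rich cells with it.

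The cell type label was checked against erythroid markers that the choice of cells did not use. Slc4a1, the band 3 anion exchanger of the red cell surface, had 46 UMIs in the BSA erythroid cells and 71 in the FGF8 erythroid cells, and its level was 536 and 166 non-globin CPM (UMIs per 1000000 UMIs that are not from the 4 adult globins) against 0.09 and 0.24 in all other kept cells. Epb42, which anchors band 3 to the membrane skeleton, had 6 and 13 UMIs. The regulators of earlier erythroid stages were at or near 0: Klf1 had 0 UMIs in BSA and 2 in FGF8, Gata1 had 1 and 2, and Epor had 0 in both libraries. For Epor, 0 of 68 BSA cells allows a share of cells with a UMI of up to 4.41% and 0 of 440 FGF8 cells up to 0.682% (3 counts of the total), beside 0.76% and 0.60% in cells with a Pdgfra UMI, so a low level of Epor was not detectable at this depth. The cells thus carried late erythroid markers, with 0 to 2 UMIs per library of Klf1, Gata1 and Epor. The cells with over 1500 detected genes also carried, in many cases, defining markers of other cell types, which are given further on.

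Promoter stretches are shown for the genes whose RNA chose the cells, since they carry the erythroid definition used throughout. Each line gives 30 bases, 5′ to 3′ on the gene's strand, taken from the RefSeq promoter table (GRCm38.p6) and placed on GRCm39 by exact match. Capitals mark matches on either strand to a pair of motifs. The first is CACCC, to which factors of the Klf1 type bind. The second is the box that reads CCAAT, which many promoters of housekeeping and tissue genes share. For Hba-a1 the stretch lies at chr11:32233572-32233601 on the plus strand, from 100 to 71 bases before the RefSeq start. The Hbb-bs stretch lies at chr7:103477201-103477230 on the minus strand, the Hbb-bt stretch at chr7:103463205-103463234 on the minus strand, and the Alas2 stretch at chrX:149330366-149330395 on the plus strand.
Hba-a1: agcacaaaccagCCAATgagaactgctcca
Hbb-bs: agccaCACCCtggtaagggCCAATctgctc
Hbb-bt: CACCCtgcagggtaaCACCCtggcATTGGc
Alas2: cggaaggGGGTGGGGTGGGGTGggcggggc

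The Hba-a2 stretch, at chr11:32246389-32246418, has the same 30 letters as that of Hba-a1, and the upstream sequences of this pair had 0 mismatches over 147 aligned bases, against 28 over 143 for Hbb-bs and Hbb-bt. In the 150 bases before the start of all 32851 promoters in the table, CACCC was found on either strand in 37.4% and CCAAT in 24.5%, so a match by itself is common. GENCODE annotates further transcripts of these genes that start upstream of the RefSeq start, and a match is a description of the letters, not of a bound site.

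The erythroid share of kept cells was 2.09% (68 of 3252, exact interval 1.63 to 2.64) in BSA and 6.55% (440 of 6715, 5.97 to 7.17) in FGF8. This difference depended on the lower limit of detected genes. The BSA library held 150 barcodes with 200 or fewer genes and the FGF8 library 19, and 102 and 15 of these met every other part of the definition. In those 102 BSA barcodes the median globin share was 96.2% and the median number of detected genes 149.5, with a median of 5924 UMIs. With no filter on detected genes or mitochondrial share, the erythroid barcodes numbered 170 of 3703 (4.59%, 3.94 to 5.32) in BSA and 455 of 7249 (6.28%, 5.73 to 6.86) in FGF8. Just above the limit, at up to 250 detected genes, lay 25 of the 68 BSA cells and 16 of the 440 FGF8 cells.

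Few cells lay near the globin limit. Globin shares of 20 to 25% were found in 1 BSA and 3 FGF8 erythroid cells, while 1 and 9 kept cells had 15 to 20%, of which 0 and 2 met the rest of the definition. The lowest share of an erythroid cell was 23.9% in BSA and 20.4% in FGF8, and 96.5% and 89.9% of all kept cells had under 1% globin. The other limits removed more barcodes. Of the 88 BSA and 627 FGF8 kept cells with at least 20% globin, 12 and 146 had no UMI of Alas2, and of those with Alas2 8 and 41 had a UMI of Pdgfra. The 146 FGF8 barcodes without Alas2 had a median of 1272.5 UMIs, 301.5 detected genes and 69.5% globin, and therefore held fewer UMIs than the FGF8 erythroid cells. The 12 BSA barcodes without Alas2 had a median of 4245.5 UMIs, 1275 detected genes and 44.5% globin. The limit on Pdgfra also removed unlike barcodes in the libraries, with a median of 5130 detected genes and 36.3% globin in the 8 of BSA and 456 genes and 90.9% globin in the 41 of FGF8.

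**Figure D1:**
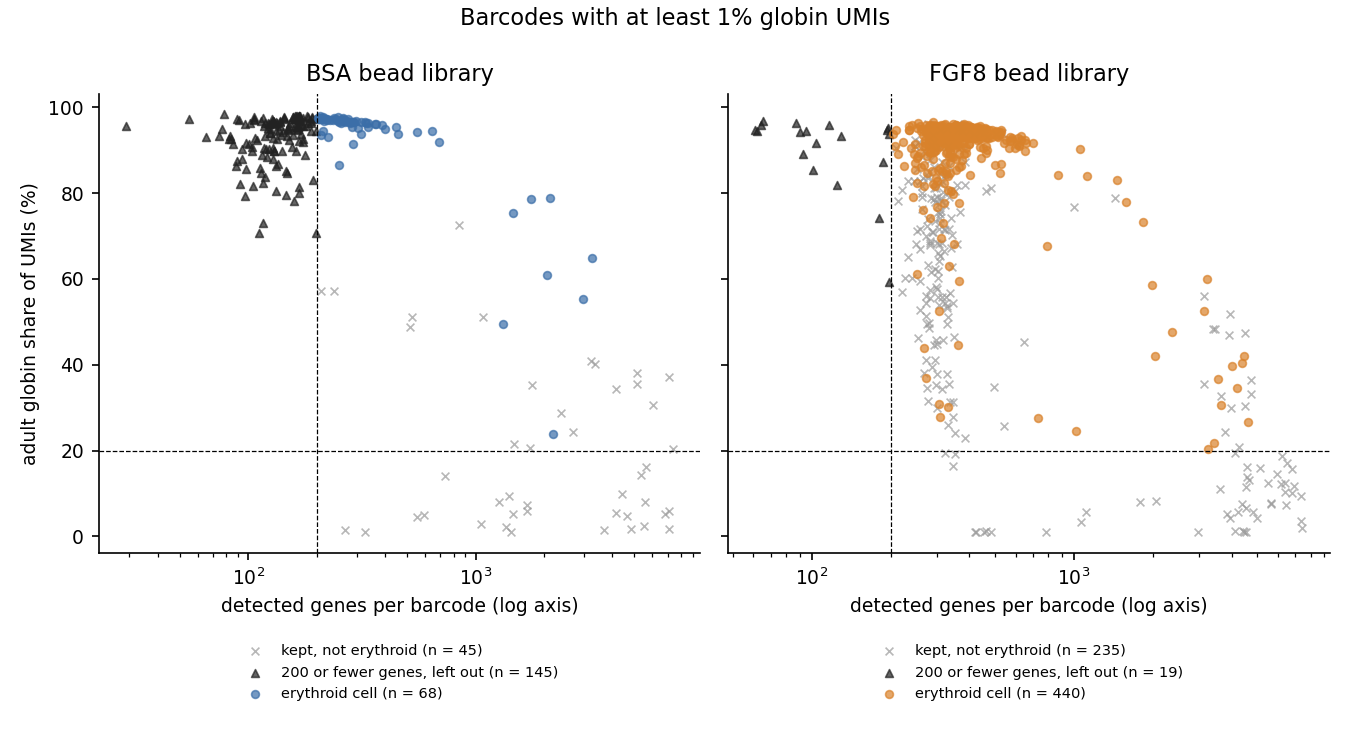
Adult globin share of UMIs (%) against detected genes (log axis) for every barcode with at least 1% globin in the BSA library (left) and the FGF8 library (right); dashed lines mark 200 detected genes and 20% globin. The erythroid cells (68 and 440) crowd at the upper left, and 145 BSA barcodes but only 19 FGF8 barcodes with over 20% globin lie left of the gene limit.

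Erythroid cells carried many UMIs but few genes. The BSA cells had 2145 to 33740 UMIs (median 18942) and the FGF8 cells 537 to 29596 (median 9056.5). The detected genes numbered 269.5 at the median in BSA and 352 in FGF8, against 4245.5 and 3854 in the other kept cells of each library. The globin share had a median of 96.5% in BSA and 93.6% in FGF8, which left a median of 624 and 524 non-globin UMIs per cell. Mitochondrial transcripts gave a median of 0.07% and 0.13% of UMIs, against 2.39% and 2.43% in the other kept cells. Globin fills most of this total, and of non-globin UMIs they gave 2.51% and 2.36% in the cells of up to 500 detected genes, close to the 2.60% and 2.56% in the other cells. When each cell was thinned to 250 non-globin UMIs, the median was 142 detected genes in BSA and 191 in FGF8, so FGF8 erythroid cells spread a fixed number of non-globin UMIs over more genes. The full ranges of UMIs overlapped, but the middle 50% of cells did not, with quartiles of 14965.5 and 21686 UMIs in BSA and 5590 and 12440 in FGF8. These quartiles hold only for cells above the limit of 200 detected genes. The 102 BSA and 15 FGF8 barcodes below it that met the rest of the definition had medians of 5924 and 2234 UMIs.

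Among the globins, Hbb-bs, an adult beta chain, was the most abundant, with 42.5% of all UMIs of the erythroid cells in BSA and 43.7% in FGF8. Hba-a1, an adult alpha chain, gave 37.8% and 35.7%. Hbb-bt, the other adult beta chain, gave 10.3% and 8.39%, and Hba-a2 gave 2.49% and 1.73%. The alpha to beta ratio of UMIs was 0.764 in BSA and 0.720 in FGF8. The split between Hba-a1 and Hba-a2 is uncertain, because their annotated main transcripts differ at 1 of 647 aligned bases (99.8% identity) and reads that fit both cannot be assigned, although Hba-a1 ends in 23 bases that Hba-a2 lacks. Hbb-bs and Hbb-bt differ at 49 of 660 aligned bases (92.6% identity). The reference carries the globin alleles of the C57BL/6 strain, and the alleles of the outbred ICR mice were not analysed here.

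The proportion of the beta chains differed from cell to cell. Hbb-bt gave 3.64 to 28.6% of beta globin UMIs (median 18.5%) in the 57 BSA cells of up to 500 detected genes and 0 to 28.3% (median 13.6%) in the 386 such FGF8 cells. The ranges overlapped almost wholly. In cells with over 500 and up to 1500 genes the median was 13.2% in 5 BSA cells and 20.3% in 38 FGF8 cells, but the share of their summed UMIs was 23.4% in BSA and 20.6% in FGF8, so no order of the libraries is read there. Embryonic globins, which are made by primitive red cells of the yolk sac, were almost absent: Hbb-y had 0 UMIs in BSA and 2 in FGF8, Hbb-bh2 had 0 and 1, and Hbb-bh1 and Hba-x had 0 in both.

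The cells fell into 3 ranges of detected genes that differed in what else they contained. Cells of over 200 and up to 500 genes, called few-gene cells from here on, numbered 57 of 68 in BSA (83.8%, 72.9 to 91.6) and 386 of 440 in FGF8 (87.7%, 84.3 to 90.6). A middle range of up to 1500 genes held 5 and 38 cells, and 6 and 16 cells had more than that. Although these last 22 were few, they held 45.8% of the non-globin UMIs of all BSA erythroid cells and 40.8% of those in FGF8. Sums over all erythroid cells of a library therefore rest in large part on these 22 barcodes, and values for the few-gene cells are given beside many of them.

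Among the marker lists of other cell types, the one with the most UMIs in a barcode was that of macrophages in 9 (29 to 603 UMIs), fibroblasts in 9 (28 to 663), neutrophils in 2 (122 and 469), endothelial cells in 1 (15) and keratinocytes in 1 (307). In these barcodes Klf1, Gata1 and Epor had 0 UMIs throughout. Spi1, a transcription factor of macrophages and neutrophils, was present in 11 of 22, and Ptprc, the pan-leukocyte surface gene CD45, in 10. The macrophage markers summed to 20228 non-globin CPM in the BSA cells of this range and 7750 in FGF8, against 622 and 930 in the few-gene cells. In BSA 603 of the 795 UMIs lay in 1 barcode, without which the level was 6599. The fibroblast markers stood at 9160 in BSA and 10314 in FGF8 against 9608 and 17458 in the few-gene cells, and 329 of the 360 BSA UMIs lay in 1 barcode, without which the level was 1097. In the 9 barcodes where this list came first its level ran from 5989 to 37393. Whether these barcodes each held more than 1 cell was not tested, and no doublet caller was run.

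**Figure D2:**
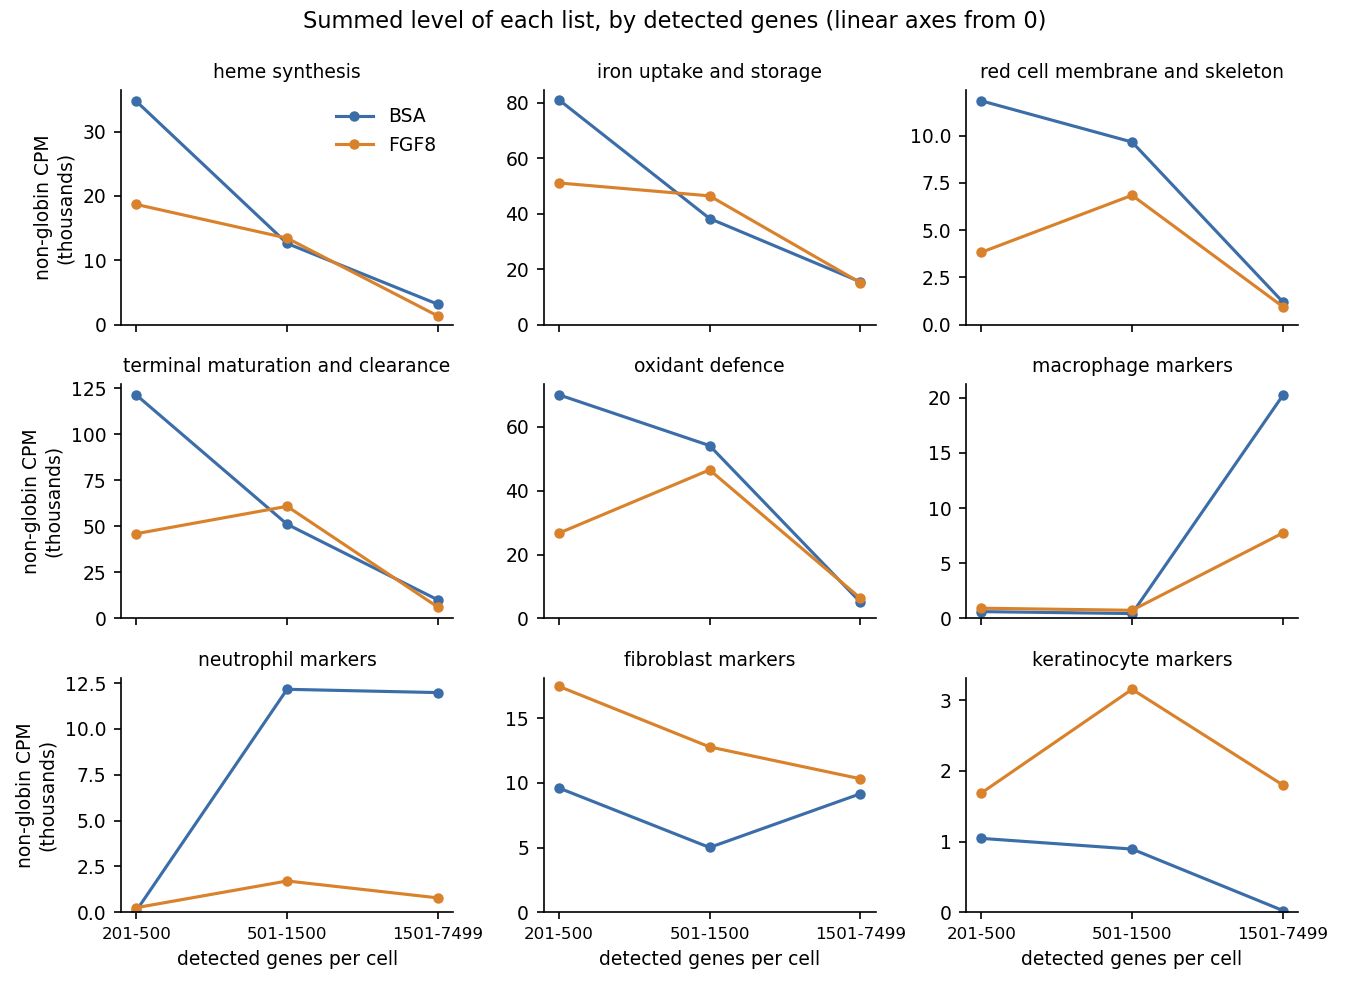
Summed level of 9 gene lists (non-globin CPM divided by 1000, linear axes from 0) in erythroid cells of 3 ranges of detected genes, in BSA (57, 5 and 6 cells) and FGF8 (386, 38 and 16 cells). The heme, iron and maturation lists of BSA are highest in the range of up to 500 genes, while in FGF8 the maturation (60893), membrane (6841) and oxidant defence (46509) lists are highest in the middle range. The macrophage list is highest in the range of most genes, at 20228 in BSA (6599 without 1 barcode) and 7750 in FGF8.

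The genes that differed most between the cells of fewest and most genes, in both libraries, are given as a description. Among genes with at least 100 UMIs, those most in favour of few-gene cells were Cox6b2, Isg20, F930017D23Rik, Ccndbp1, Ube2l6, Bnip3l, Bpgm, Fech, Marchf2 and Mkrn1. Mkrn1, a ubiquitin ligase gene, had a log2 ratio of few-gene over most-gene cells of 3.82 in BSA and 3.72 in FGF8. Those most in favour of the cells with most genes were Cd74, C1qc, Fcer1g, Aif1, Clec4a2, H2-Aa, C1qb, Cd52, Ctss and H2-Ab1, which belong to macrophages and other antigen-presenting cells. Cd74, the MHC class II invariant chain, had a log2 ratio of -6.50 in BSA and -5.35 in FGF8.

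Against all other kept cells, the erythroid cells were set apart by late erythroid genes. Of 20362 genes with at least 20 UMIs over all kept cells, 508 (2.49%) had a log2 ratio of non-globin CPM above 1 in both libraries, and of the 3928 genes with at least 20 UMIs in the erythroid cells themselves 248 (6.31%) did. Since the cells were chosen on counts of the same libraries, these ratios are a description of the chosen cells. By list, the ratio was above 1 in both libraries for 15 of 25 genes of the red cell membrane and skeleton, 21 of 30 of terminal maturation and clearance, 6 of 18 of iron uptake and storage, 6 of 18 of oxidant defence, 4 of 15 of heme synthesis and 3 of 19 erythroid transcription factors. It was above 1 for 0 of 24 S phase genes, 2 of 26 G2 and mitosis genes and 0 of 9 fibroblast markers. Of 12 macrophage markers it was above 1 for 4, namely Cd74, C1qa, C1qb and C1qc, and for 0 when only few-gene cells were compared.

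Heme is made from glycine and succinyl-CoA, and Alas2 encodes the erythroid form of the first enzyme. Alas2 UMIs per few-gene cell ranged from 1 to 37 (median 17) in BSA and from 1 to 29 (median 7) in FGF8. At least 1 UMI was required of every cell, so only the amount carries information. The medians per few-gene cell, here and below, leave out the barcodes with 200 or fewer genes. The 102 BSA and 15 FGF8 barcodes of that kind that met the rest of the definition had medians of 5 and 2 Alas2 UMIs. The level of Alas2 over all erythroid cells was 13008 non-globin CPM in BSA and 8566 in FGF8, against 3.55 and 5.53 in the other cells. In few-gene cells it was 26563 and 15183. Fech, which inserts iron into the porphyrin ring, had 0 to 21 UMIs per few-gene cell (median 4) in BSA and 0 to 10 (median 1) in FGF8. Urod, an enzyme of the middle of the pathway, had 29 and 57 UMIs in total. The housekeeping form Alas1 had 3 and 12 UMIs.

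The iron list summed to 81158 non-globin CPM in few-gene cells of BSA and 51107 in those of FGF8. Ftl1, the ferritin light chain of the iron store, was its most abundant gene and had 2 to 76 UMIs per few-gene cell (median 24) in BSA and 0 to 44 (median 14.5) in FGF8. Fth1, the ferritin heavy chain, had medians of 13 and 6. Slc25a37, mitoferrin, which carries iron into mitochondria, had 0 to 12 (median 4) in BSA and 0 to 14 (median 1) in FGF8, and its level over all erythroid cells was 3412 and 1688 non-globin CPM against 12.7 and 19.0 in the other cells. Glrx5, of iron-sulfur cluster assembly, had 117 and 246 UMIs, and Ncoa4, the receptor for ferritin breakdown, 62 and 140. Tfrc, the transferrin receptor of iron-importing erythroblasts, had 3 UMIs in BSA and 10 in FGF8, and a UMI was found in 2.9% of BSA and 2.0% of FGF8 erythroid cells against 9.8% and 17.2% of cells with a Pdgfra UMI. The latter hold many more non-globin UMIs, and as a level Tfrc was at 34.9 and 23.3 non-globin CPM in erythroid cells and 14.6 and 18.7 in the other cells. Of the Tfrc UMIs of the erythroid cells, however, 7 lay in the 22 barcodes of the range with most detected genes. Few-gene cells held 2 in BSA and 3 in FGF8, too few to order their Tfrc level against that of the other cells.

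Membrane genes differed in how many cells they were found in. A UMI of Slc4a1 was present in 26.5% of BSA erythroid cells (16.5 to 38.6) and 10.7% of FGF8 erythroid cells (7.95 to 13.9), against 0.19% and 0.32% of the cells with a Pdgfra UMI, whose median depths were 21426 and 19121 UMIs. After each cell was thinned to 1000 UMIs the shares were 4.41% (0.92 to 12.4) in 68 cells and 1.39% (0.51 to 3.0) in 432, which is close to the level of single UMIs. Epb41, protein 4.1 of the membrane skeleton, had 195 and 430 UMIs and was found in 86.8% (76.4 to 93.8) of BSA and 46.8% (42.1 to 51.6) of FGF8 erythroid cells, and after thinning in 22.1% (12.9 to 33.8) and 9.0% (6.5 to 12.1). Its share in cells with a Pdgfra UMI was 37.0% and 31.0% before thinning and 2.55% and 2.46% after it. The intervals count cells of 1 library per treatment after a single random thinning, and most UMIs of a thinned cell are globin.

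Regulators were sparse. Among 19 transcription factors, 7 had 3 or fewer UMIs over both libraries together, among them Klf1, Gata1, Tal1, Nfe2 and Gfi1b. Lmo2, a partner of Gata1 and Tal1, was the most frequent with a raised level, at 29 and 43 UMIs, and E2f2, which acts in the last divisions of erythroblasts, had 17 and 44. In the erythropoietin pathway Bcl2l1, the survival gene Bcl-xL, had 38 and 68 UMIs. Of the early progenitor genes Kit had 1 and 4, Gata2 0 and 3 and Myb 0 and 1. Spi1 had 23 and 73 UMIs, and in few-gene cells its level was 0 in BSA and 19.5 non-globin CPM in FGF8.

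The list of terminal maturation and clearance summed to 121341 non-globin CPM in few-gene cells of BSA and 46032 in those of FGF8. In the middle range of genes the list stood at 51158 in the 5 BSA cells and 60893 in the 38 FGF8 cells. With both limits of that range set lower, the levels were 101743 in 5 BSA cells and 71005 in 104 FGF8 cells. The order thus turned with the limits, and no order of the libraries is read there. The 5 BSA cells of the first choice had 0 to 43 UMIs of Mkrn1, and their neutrophil markers summed to 12163.5 non-globin CPM. Mkrn1, the most abundant gene of the maturation list, had 0 to 40 UMIs per few-gene cell (median 16) in BSA and 0 to 31 (median 3) in FGF8. Bpgm, which makes the 2,3-bisphosphoglycerate that lowers oxygen affinity of hemoglobin, had 0 to 45 (median 8) and 0 to 28 (median 1). Bnip3l, the mitophagy receptor of reticulocytes also known as Nix, had 0 to 29 (median 6) and 0 to 14 (median 1). In each case the FGF8 cells covered the lower part of the BSA range, with the median FGF8 cell below the median BSA cell. The autophagy genes Map1lc3b (245 and 759 UMIs) and Gabarapl2 (246 and 673) and the ubiquitin conjugation genes Ube2o (89 and 178) and Ube2l6 (110 and 230) were also present. Car2, a carbonic anhydrase of red cells, had 117 and 292 UMIs, while Car1 had 4 and 3.

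Oxidant defence was carried by a few genes. Gpx1, glutathione peroxidase, had 0 to 72 UMIs per few-gene cell (median 18) in BSA and 0 to 56 (median 0) in FGF8, where a UMI was found in 49.7% of few-gene cells against 87.7% in BSA. Prdx2, the peroxiredoxin of red cells, had 0 to 49 (median 12) and 0 to 40 (median 4). Blvrb, biliverdin reductase B, had medians of 2 and 0. Cat, catalase, had only 18 and 52 UMIs in all.

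**Figure D3:**
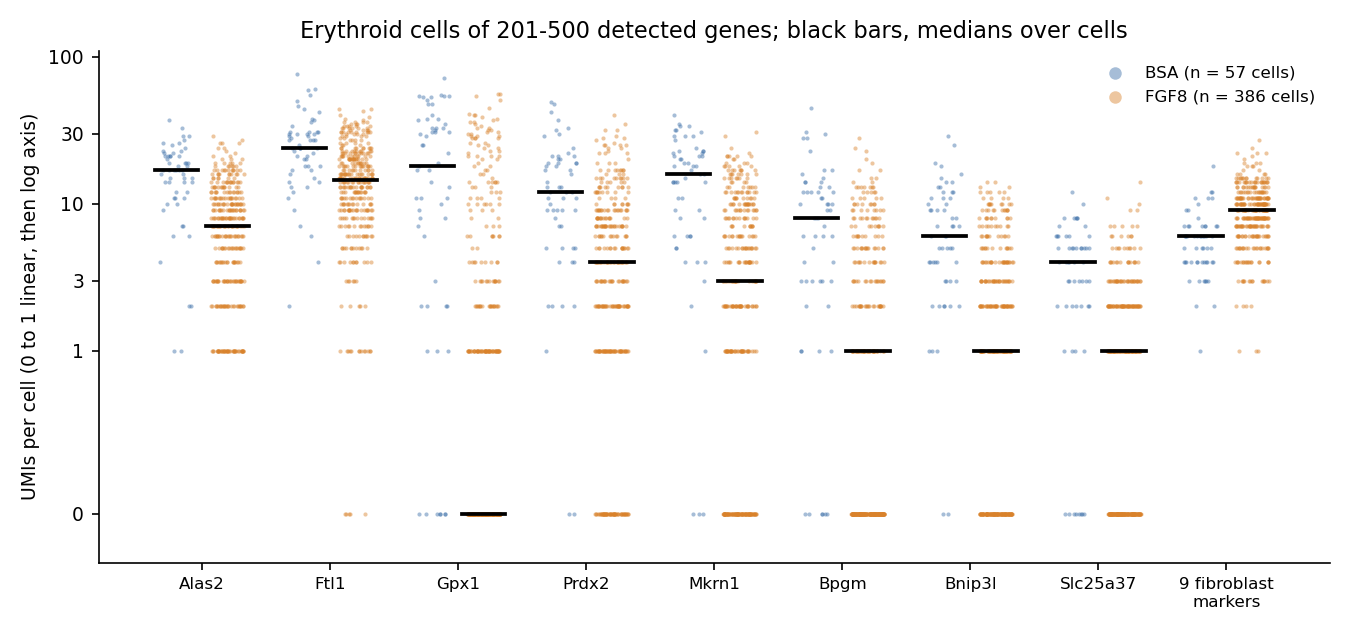
UMIs per cell (linear from 0 to 1, then log axis) of 8 erythroid genes and of 9 fibroblast markers summed, in erythroid cells of up to 500 detected genes; each point is a cell, black bars are medians, blue is BSA (57 cells) and orange FGF8 (386 cells). The FGF8 median is lower for Alas2 (7 against 17), Gpx1 (0 against 18) and Mkrn1 (3 against 16) and higher for the fibroblast markers (9 against 6), with overlapping ranges throughout. Barcodes with 200 or fewer genes are left out, and 102 of these in BSA and 15 in FGF8 met the rest of the definition.

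Outside the lists, the 15 genes with the highest ratio to other cells in both libraries were Hbq1a, F930017D23Rik, Rsad2, Prxl2a, Marchf2, Cd24a, Slc25a39, Isca1, Fam210b, Ccndbp1, Slc48a1, Tfdp2, Septin1, Plaat3 and Hscb. Hbq1a, a theta globin gene of the alpha globin cluster whose reads may be split with its close copy Hbq1b, had 396 non-globin CPM in BSA and 259 in FGF8 against 0.09 and 0.30 in other cells. Cd24a, a surface glycoprotein of erythroid precursors, had 3994 and 1334 against 36.4 and 37.7. In few-gene cells Hbq1a was at 791 and 463 non-globin CPM and Cd24a at 7432 and 1856. Isca1 and Hscb serve iron-sulfur cluster assembly, Slc25a39 imports glutathione into mitochondria, and Slc48a1 transports heme. Rsad2, an interferon-inducible antiviral enzyme, had 2003 and 982 non-globin CPM against 21.4 and 9.45 in the other cells. Its level in few-gene cells was 4013 and 1271. A further group was abundant in erythroid cells and also in the rest: Camk1d had a median of 15 UMIs per few-gene cell in BSA and 7 in FGF8, and its level in the other cells was 2113 and 1046 non-globin CPM.

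FGF8 and BSA erythroid cells were then compared by the log2 ratio of non-globin CPM. Over all erythroid cells, 1003 of 3928 genes (25.5%) had a ratio above 1 and 381 (9.7%) below -1, with a median of 0.32 over all genes. In the few-gene cells 581 of 1447 genes (40.2%) were above 1 and 170 (11.7%) below -1, with a median of 0.74. On CPM of all UMIs, globins included, 1855 genes were above 1 and 111 below -1, and by mean UMIs per cell 625 and 710 were, so the balance of higher and lower genes depended on the scale. The few-gene values are therefore to be read against a shift of all genes toward FGF8. The ratio used the same cells as the choice of members, but the FGF8 and BSA contrast did not enter that choice.

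Erythroid lists lay below the background in this comparison. Of 24 maturation and clearance genes, 0 were above 1 and 8 below -1 (median -0.93), and in few-gene cells 1 of 20 was above 1 and 19 below -1 (median -1.37). Of 13 membrane genes, 0 were above 1 and 7 below -1 (median -1.03), and of 9 iron genes 0 and 3 (median -0.47). Of 6 heme synthesis genes 0 were above 1 and 1, Urod, was below -1 (median -0.28), of 6 transcription factors 0 and 2 (median -0.84), and of 16 oxidant defence genes 3 and 4 (median -0.18). Txn1, Prdx1 and Txnrd1 were the 3 above 1, thioredoxin system genes that most cells express. In few-gene cells 0 of 8 membrane genes were above 1 and 6 below -1 (median -1.44), beside 40.2% and 11.7% of all genes. The counts there were 2 and 4 of 8 iron genes (median -0.95) and 0 and 2 of 4 heme synthesis genes (median -1.05). They were 0 and 2 of 2 transcription factors (median -2.15) and 2 and 6 of 11 oxidant defence genes (median -1.08).

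The direction of the maturation list turned under some choices of cells. Its median was 0.19 with no limit on Pdgfra (76 and 481 cells) and 1.98 in the 1 BSA and 4 FGF8 cells with no UMI of Col1a1, Col1a2 and Col3a1. Lifting the limit on Pdgfra let in unlike barcodes. The 8 of BSA had medians of 5130 detected genes and 36.3% globin, and the 41 of FGF8 456 genes and 90.9%. Their part in the values given with no limit on Pdgfra was not tested.

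Single genes showed the size of these differences. Bpgm had a log2 ratio of -1.18 (-1.32 to -1.05) over all erythroid cells and -1.59 (-1.74 to -1.44) in few-gene cells. For Gpx1 the values were -1.23 (-1.32 to -1.15) and -1.81 (-1.91 to -1.70). With no limit on Pdgfra Gpx1 was at 0.010 instead, and in the cells without collagen UMIs at 1.04. At matched total UMIs Gpx1 was at -0.90 in few-gene cells, and at -0.40 when the lower limit of detected genes was lifted as well. Slc4a1 was at -1.69 (-2.25 to -1.13) over all erythroid cells and -1.93 (-2.67 to -1.18) in few-gene cells. Alas2 was at -0.60 (-0.70 to -0.50) and -0.81 (-0.91 to -0.70), but at 0.00 on CPM of all UMIs, 0.51 with no limit on Pdgfra and 1.40 in the cells without collagen UMIs. Since Alas2 helped to choose the cells, its ratio is only a description, and it was -0.50 with no minimum of Alas2. Ftl1 was at -0.25 (-0.32 to -0.18) and -0.55 (-0.63 to -0.47), the smallest shift among the abundant erythroid messages named here. In the middle range of detected genes, with 5 BSA cells, Gpx1 stood at 25579 non-globin CPM in BSA and 22482 in FGF8, and Alas2 at 8139 and 8758.

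Markers of other cells also differed between the libraries. In few-gene cells the 9 fibroblast markers summed to 9608 non-globin CPM in BSA and 17458 in FGF8, which was 23.5% and 71.5% of their level in the other kept cells of the same library. All 9 were measured, 7 had a ratio above 1 and 0 below -1 (median 1.10), beside 40.2% and 11.7% of all genes there. Over all erythroid cells their median was 1.03, and it turned to -0.75 with no limit on Pdgfra. The most abundant of the 9 in few-gene cells was Col1a1 in BSA (2939 non-globin CPM) and Col3a1 in FGF8 (4106). Pdgfra, their defining receptor, is at 0 by the choice of cells. Keratinocyte markers summed to 1046 and 1685 non-globin CPM in few-gene cells (median ratio 0.70) and macrophage markers to 622 and 930 (0.34). Each of these medians rests on only 3 genes with at least 20 UMIs, and neither lay above the median of all genes there. The keratinocyte level in few-gene cells was 113% and 216% of that in the other kept cells. Over all erythroid cells the keratinocyte markers summed to 559 and 1898 non-globin CPM. Of the 6 markers 5 were above 1 and 0 below -1 (median 1.66), beside 25.5% and 9.7% of all genes. Of the 814 FGF8 UMIs 307 lay in 1 barcode, without which the level was 1201 and 2 of 6 were above 1. The macrophage markers summed over all erythroid cells to 9573 in BSA and 3693 in FGF8, and the BSA value fell to 2894 without the 1 barcode that held 603 of its 822 UMIs. Without its own barcode of most UMIs the FGF8 value was 2849. The neutrophil markers summed to 7104 and 636, and to 1738 in BSA without the 1 barcode that held 469 of 610 UMIs. In FGF8 1 barcode held 122 of 273 UMIs, and the value was 355 without it. In few-gene cells the neutrophil markers were at 84.8 in BSA and 253 in FGF8. In few-gene cells ribosomal protein genes gave 10.8% of non-globin UMIs in BSA and 17.9% in FGF8, against 17.2% and 18.1% in the other cells. The part of RNA from other cells in the FGF8 and BSA differences was not tested by a correction for free RNA.

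Among genes with at least 100 UMIs in erythroid cells, the highest ratios belonged to Timp1, Spp1, Cxcl1, Ccl2, Prg4, Pde4d, Tagln, Crabp1, Nav3 and S100a4. Timp1, an inhibitor of matrix metalloproteinases, had 1 UMI in BSA and 327 in FGF8 erythroid cells (log2 ratio 6.03, 3.54 to 11.34), and its ratio in all other kept cells was 2.14. Spp1, osteopontin, had 2 and 395 UMIs (5.31, 3.44 to 8.36), with 2.80 in the other cells. Prg4, lubricin, had 2 and 200 (4.32, 2.45 to 7.38), with 3.01 in the other cells. Cxcl1 and Ccl2 encode chemokines, and Tagln encodes a smooth muscle and myofibroblast protein. Part of these UMIs lay in the 16 FGF8 cells with over 1500 genes, among them 100 of 115 for Nav3, 99 of 147 for Cxcl1, 62 of 99 for Tagln, 163 of 298 for Pde4d, 59 of 116 for Ccl2 and 206 of 444 for S100a4. In few-gene cells Tagln had 0 UMIs in BSA, and the ratio was 0.92 for Nav3, 2.79 for Cxcl1, 5.28 for Timp1, 4.74 for Spp1 and 3.62 for Prg4. In the other kept cells the ratio was above 0 for 9 of the 10, Tagln being at -0.47 there. The 10 genes were chosen for a high ratio and reached 100 UMIs almost wholly through FGF8. This count is therefore only a description and was not set against all genes.

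The lowest ratios belonged to S100a9, S100a8, Mgp, Col2a1, Il1b, Fos, Col11a1, Cox6b2, Cd74 and Nt5c3. For 8 of these 10 genes the BSA UMIs lay largely in cells with over 500 genes. S100a9, a calprotectin subunit of neutrophils, had 340 and 134 UMIs (log2 ratio -3.66), of which 274 BSA UMIs lay in the 6 cells with over 1500 genes, and in few-gene cells it had 1 and 15 UMIs. Of the 471 UMIs of the neutrophil list in those 6 cells, 469 lay in 1 barcode. Mgp, matrix Gla protein, had 315 and 162 UMIs, of which 308 BSA UMIs lay in those 6 cells, and its ratio turned to 1.23 in few-gene cells. Of the 10, Cox6b2, a cytochrome oxidase subunit, and Nt5c3, the pyrimidine nucleotidase of red cells, were the ones below -1 also in few-gene cells, at -1.89 and -2.74.

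**Figure D4:**
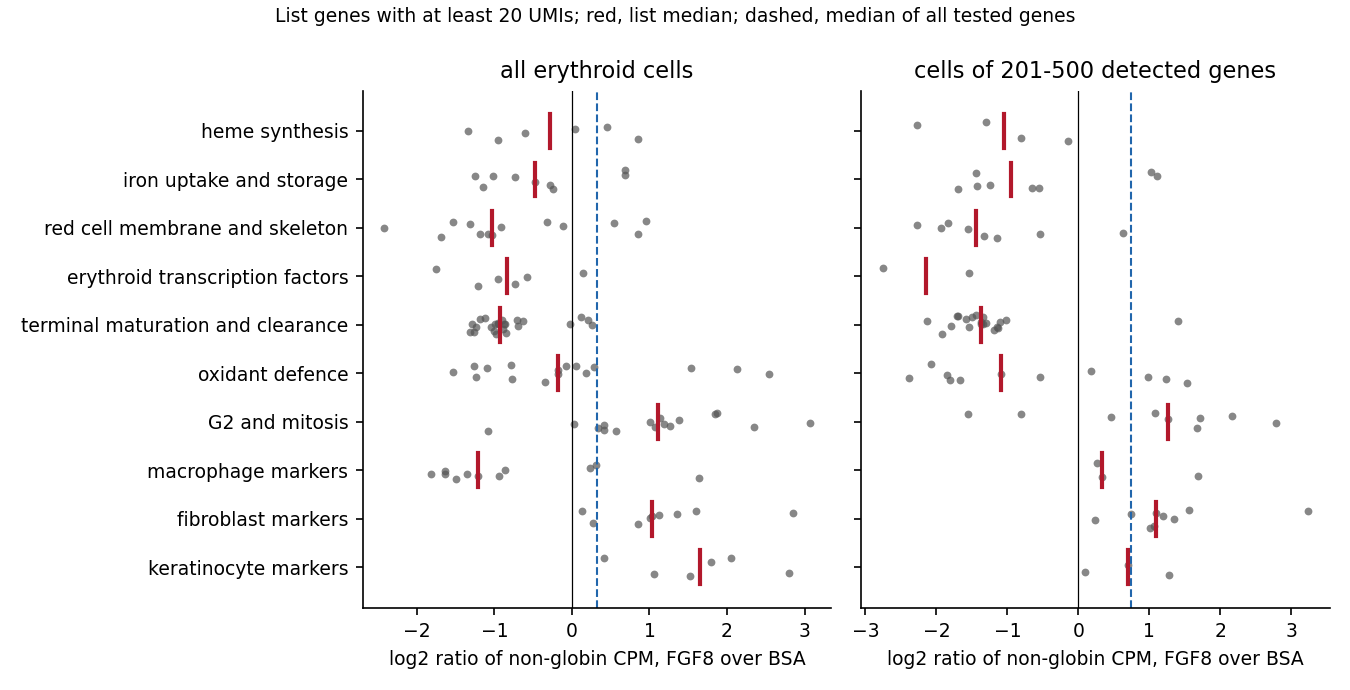
Log2 ratio of non-globin CPM, FGF8 over BSA, for list genes with at least 20 UMIs in all erythroid cells (left) and in cells of up to 500 detected genes (right); each point is a gene, red bars are list medians and the dashed line is the median of all tested genes (0.32 and 0.74). The maturation and clearance median is -0.93 and -1.37, and the fibroblast marker median 1.03 and 1.10. With no limit on Pdgfra these medians over all erythroid cells turned to 0.19 and -0.75. That choice let in 8 BSA barcodes with a median of 5130 detected genes and 41 FGF8 barcodes with 456.

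Cells differed strongly within each library, and depth moved with that difference. In few-gene cells the maturation and clearance list gave 10.4 to 187 UMIs per 1000 non-globin UMIs (median 126) in BSA and 0 to 135 (median 28.0) in FGF8. Across cells this value went with total UMIs, with a Spearman correlation of 0.46 over 57 BSA cells and 0.83 over 386 FGF8 cells, and with the Hbb-bt share of beta globin, at 0.42 and 0.79. It went against the fibroblast markers per 1000 non-globin UMIs, at -0.49 and -0.42. These correlations are descriptions over cells of a single library that share its depth and its free RNA, and the last one is between parts of the same total.

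At matched total UMIs the FGF8 and BSA difference was smaller. Among few-gene cells with 10000 to 20000 UMIs there were 30 BSA and 139 FGF8 cells, with median UMIs of 16819 and 12446. In these cells 0 of 20 maturation and clearance genes were above 1 and 2 were below -1 (median -0.67), and the list summed to 116631 and 73640 non-globin CPM. Its mean was 63.7 UMIs per cell in BSA and 49.0 in FGF8, and that of the heme synthesis list 18.2 and 16.0. Of all 595 genes tested there, 150 (25.2%) were above 1 and 54 (9.08%) below -1, with a median of 0.31. When barcodes with 200 or fewer genes were let in at the same depth, the BSA cells numbered 57, and 0 of the 20 genes were past 1 in either direction (median -0.39), beside 158 (25.4%) above 1 and 31 (4.99%) below -1 of 621 genes in all (median 0.47). There the list had a mean of 45.7 UMIs per cell in BSA and 49.0 in FGF8, and the heme synthesis list 17.2 and 16.0. The fibroblast markers had 5.18 and 9.62 UMIs per cell. Only total UMIs were matched, since these cells had a median of 383 non-globin UMIs and 204 detected genes in BSA against 648 and 382 in FGF8, and per non-globin UMIs the maturation list was lower in FGF8, at 73640 non-globin CPM against 104694. This band of depth was chosen after the values had been seen, and the median depths within it still differed.

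**Figure D5:**
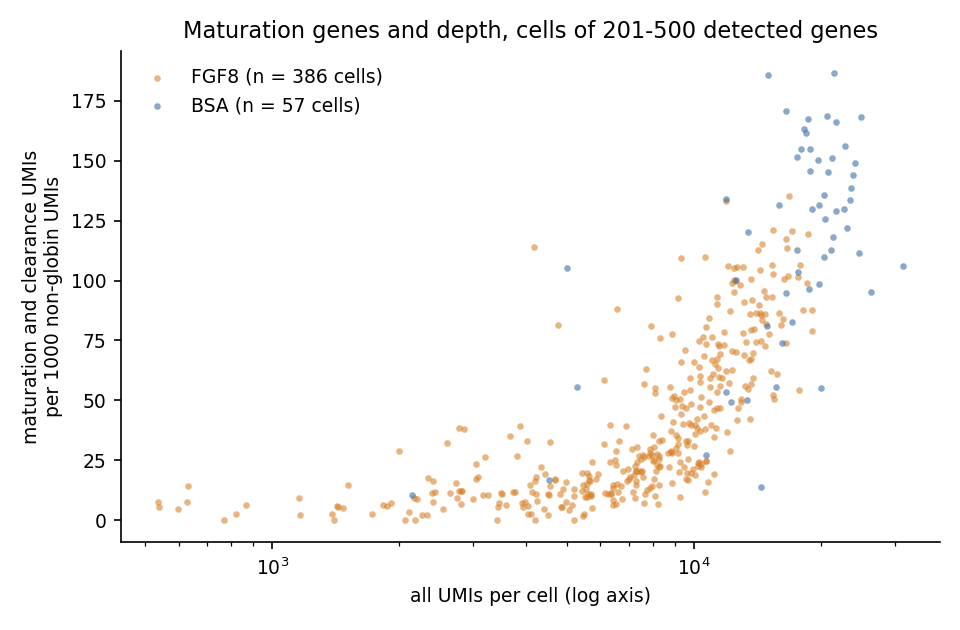
Maturation and clearance UMIs per 1000 non-globin UMIs against all UMIs per cell (log axis) in erythroid cells of up to 500 detected genes; each point is a cell, orange FGF8 (386) and blue BSA (57). Cells of few UMIs sit low and cells of many UMIs high in the FGF8 library, and most BSA cells sit at the right, where the values of the libraries overlap.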

How the data were processed

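Libraries were made with the 10x Genomics 3′ v3.1 chemistry. The authors deposited raw UMI counts per gene and barcode for each library, made with Cell Ranger 9.0.0 on a GRCm39 reference, as the study's methods and the file headers give it, and the submitters' processing notes also name Seurat and mm10. All columns of counts were used, and the per-sample columns not used numbered 0. Barcodes with over 200 and under 7500 detected genes and under 15% mitochondrial UMIs were kept, which gave the BSA cell number that the study states and 1 FGF8 cell fewer. No doublet caller was run and no free RNA was removed.

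UMIs were summed over the erythroid cells of a library. Globin genes were given per all UMIs, and other genes as CPM of the UMIs not from the 4 adult globins. Ratios carry exact conditional 95% intervals, shares exact Clopper-Pearson intervals, and a gene with 0 UMIs was set to a floor of 3 counts per library. Genes needed at least 20 UMIs, and a log2 ratio past 1 or -1 was called. Named genes were the marker genes, the most abundant genes of 20 fixed lists (270 of 272 genes in the files), the 15 highest outside the lists against other cells, the 10 highest and 10 lowest between FGF8 and BSA, and the 10 at either end between ranges of detected genes, each with at least 100 UMIs. Some genes that this rule names are not reported here. The members, lists and rules were chosen with earlier results of these data known. The ratio code was tested on simulated data. Python 3.11.15, numpy 2.4.6, scipy 1.17.1, pandas 2.3.3, matplotlib 3.10.9 and Biopython 1.88 were used.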

Additional observations from a re-analysis of the deposited data

Results flagged for a closer look

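Barcodes below the lower limit of detected genes enter no comparison between the libraries except where stated, yet many held the erythroid signal. In the BSA library 102 barcodes with 200 or fewer genes met the rest of the erythroid definition, more than the 68 cells that were kept, and in the FGF8 library 15 did, beside 440 kept. The BSA barcodes had a median of 5 Alas2 UMIs and 234 non-globin UMIs, and the FGF8 barcodes 2 and 151.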

How the results depend on the processing

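Values were recomputed under other choices, of which the narrower filter, the lack of a filter and the matching of total UMIs each alter more than 1 limit together, and the cause of a difference was not tested unless stated. The number of erythroid cells was 11 in BSA and 54 in FGF8 with over 500 and under 6000 genes and under 10% mitochondrial UMIs (0.424% and 1.08% of kept cells), and 170 in BSA (4.59%) with no such filter. The FGF8 share was 8.64% with no minimum of Alas2 and 5.82% with at least 2 UMIs. Genes higher in erythroid than in other cells numbered 52 on CPM of all UMIs, where globins fill the total by construction, 287 with each cell weighted equally, 296 in few-gene cells and 248 with at least 20 UMIs in the erythroid cells.

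Genes above 1 between FGF8 and BSA numbered 608 with at least 50% globin, 588 with no limit on Pdgfra, 534 with the narrower gene filter and in cells over 500 genes, 1855 on CPM of all UMIs, 1620 with each cell weighted equally, 370 and 1561 with at least 50 and 10 UMIs, 75 in female-called cells, 581 in few-gene cells, 10 in cells without a UMI of Col1a1, Col1a2 and Col3a1, 625 by mean UMIs per cell, 652 in cells of up to 1500 genes, and 150 and 158 at matched total UMIs with and without the lower gene limit. Genes below -1 numbered 111 on CPM of all UMIs, 153 and 752 with at least 50 and 10 UMIs, 61 in female-called cells, 170 in few-gene cells, 8 in cells without collagen UMIs, 710 by mean UMIs per cell, 196 in cells of up to 1500 genes, and 54 and 31 at matched total UMIs.

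The maturation and clearance median reversed to 0.19 with no limit on Pdgfra and to 1.98 in the 1 BSA and 4 FGF8 cells without collagen UMIs. It was -1.26 with at least 10% globin, -0.51 with at least 50%, -0.13 with the narrower gene filter and in cells over 500 genes, -0.32 on CPM of all UMIs, -1.28 with cells weighted equally, -1.37 in few-gene cells, -1.30 by mean UMIs per cell, -1.06 in cells of up to 1500 genes, and -0.67 and -0.39 at matched total UMIs. The fibroblast marker median reversed to -0.75 with no limit on Pdgfra and was 1.64 on CPM of all UMIs. With no limit on Pdgfra and without collagen UMIs, respectively, Gpx1 reversed to 0.010 and 1.04, Alas2 to 0.51 and 1.40, and Bnip3l to 0.19 and 0.60. Without the BSA barcode of most UMIs of a list, the log2 ratio of the summed macrophage markers reversed from -1.37 to 0.35 over all erythroid cells and from -1.38 to 0.23 in cells over 1500 genes, and that of the neutrophil markers in cells over 1500 genes reversed from -3.93 to 3.77, and to 0.69 without the FGF8 barcode of most UMIs as well. Male-called cells gave no value, since BSA had 0 of them. The alternatives by mean UMIs per cell, in few-gene against other cells, in cells of up to 1500 genes, at matched total UMIs, at 250 non-globin UMIs, with at least 20 UMIs in erythroid cells and without a barcode of most UMIs were chosen after seeing the data.

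No paired analysis was possible because each treatment has 1 library and no test was made. Neither leaving out a replicate nor a batch comparison can be had, so treatment, library and capture cannot be told apart. The 57 few-gene BSA cells hold 35388 non-globin UMIs and the 386 FGF8 cells 205293, so intervals of sparse genes are set mainly by BSA.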

Other observations

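The lists of cell cycle genes differed from each other. The 24 S phase genes summed to 47 UMIs over all BSA erythroid cells and 337 over those of FGF8, and in few-gene cells to 226 and 901 non-globin CPM, against 849 and 1251 in the other kept cells. The G2 and mitosis list summed to 4126 and 3307 non-globin CPM in few-gene cells, against 1373 and 2798 in the other kept cells. By gene, 6 of 9 had an FGF8 over BSA ratio above 1 in few-gene cells and 1 below -1 (median 1.27), beside 40.2% and 11.7% of all genes. Over all erythroid cells 10 of 16 were above 1 and 1 below -1 (median 1.11), beside 25.5% and 9.7%. Ube2c, a ubiquitin conjugating enzyme of mitotic exit, made up 3024 and 1028 of the few-gene sums. It gave 107 of the 146 UMIs of the list in BSA few-gene cells and 211 of the 679 in FGF8. The other genes reached 20 UMIs mainly through FGF8, so the counts by gene are only a description. Ube2c was at 87.1 and 214 non-globin CPM in the other kept cells, while Mki67, a general marker of cycling cells, had 3 and 36 UMIs in all erythroid cells.

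Of the erythroid cells that could be called by sex-linked transcripts, 7 in BSA were female and 0 male, and 14 in FGF8 were female and 37 male. The remaining 61 and 389 cells had no informative UMI. The mast cell list summed to 10 and 84 UMIs, the megakaryocyte and platelet list to 20 and 97, the lymphocyte list to 3 and 18, and the endothelial list to 16 and 111. In each library 1 barcode held most of the megakaryocyte and platelet UMIs (18 and 56), and 1 held most of the endothelial UMIs (15 and 62).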
